A study of Mus musculus with 6 samples.

Results

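The genes described here are the mouse zinc finger genes named Zfp and a number whose mean level over 6 RNA-seq libraries was 5 TPM or more. TPM is a read count divided by transcript length and scaled within a library. The table held 392 such symbols among 24537 genes, and 183 of them met the level (0.746% of the table). Of the other 209, 19 were listed at 0 in all 6 libraries. Members were chosen by this measured level, a mean over all 6 libraries, which did not use the difference between the genotypes. A gene under 5 TPM in 1 genotype could still meet it through the other, and how many did so on each side was not counted. The members were also proposed with results of these data known. Just inside the level stood Zfp597, Zfp90 and Zfp39, with means of 5.06, 5.11 and 5.12 TPM. Just outside stood Zfp938, Zfp768 and Zfp770, with means of 4.94, 4.89 and 4.82 TPM. The libraries were made from RNA of cells labelled as regulatory T cells (Tregs) of the mouse colon. All mice had colitis induced with the hapten TNBS, given as 150 µl of a 1% solution on the skin and, 7 days later, as 100 µl of a 2.5% solution into the rectum. The groups were REV-ERB KO and REV-ERB WT, each with 3 libraries. The title names REV-ERBα, a nuclear receptor of the circadian clock that represses transcription. For strain, age, sex, the deleted exons, any Cre line, the isolation of the cells and the time of collection, the labels hold no entry.

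Most Zfp genes encode proteins with C2H2 zinc fingers, small folds in which a pair of cysteines and a pair of histidines hold a zinc ion and neighbouring residues read a few bases of DNA. Many of them also carry a KRAB domain, which recruits the corepressor TRIM28 (Kap1) and the histone methyltransferase SETDB1 and is known for silencing retroelements. The symbol also covers a small family that is built differently. Zfp36, Zfp36l1 and Zfp36l2 have CCCH fingers, bind AU-rich elements in mRNA and promote the decay of cytokine and early-response transcripts, a brake on T cell activation.

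The difference between these classes is visible in their coding sequences, and 1 example of each is printed for the members that the results turn on. All are given 5′ to 3′ on the coding strand, from GENCODE M21 on the build GRCm38 (the assembly also called mm10), and lie wholly within coding exons. The first pair is the KRAB stretch of Zfp382 (chr7:30130725-30130796, plus strand, exon 3 of 5) and Zfp715 (chr7:43301642-43301713, minus strand, exon 3 of 5). Capitals mark the codons of the KRAB signature searched for, which is Leu-Tyr, any residue, Asp or Glu, Val-Met.
Zfp382: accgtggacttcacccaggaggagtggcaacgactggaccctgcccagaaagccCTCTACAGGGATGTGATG
Zfp715: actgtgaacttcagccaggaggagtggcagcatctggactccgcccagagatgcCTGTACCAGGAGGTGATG
The next set shows 1 C2H2 finger each of Zfp382 (chr7:30133904-30133981, plus strand, exon 5 of 5), Zfp281 (chr1:136626063-136626140, plus strand, exon 2 of 2) and Zfp579 (chr7:4994707-4994769, minus strand, exon 2 of 2). Capitals mark the codons of the 2 cysteines and 2 histidines. The lower-case tail of the first pair encodes the linker that joins neighbouring fingers.
Zfp382: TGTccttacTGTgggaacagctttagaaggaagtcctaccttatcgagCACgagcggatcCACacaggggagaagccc
Zfp281: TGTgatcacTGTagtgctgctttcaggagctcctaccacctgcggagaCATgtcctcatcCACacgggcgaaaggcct
Zfp579: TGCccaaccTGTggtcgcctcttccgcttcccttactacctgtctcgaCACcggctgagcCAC
The last set shows 1 CCCH finger of Zfp36 (chr7:28378158-28378217), Zfp36l1 (chr12:80110189-80110248) and Zfp36l2 (chr17:84186668-84186727), all on the minus strand in exon 2 of 2. Capitals mark the codons of the 3 cysteines and the histidine.
Zfp36: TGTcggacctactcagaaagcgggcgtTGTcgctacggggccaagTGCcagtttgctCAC
Zfp36l1: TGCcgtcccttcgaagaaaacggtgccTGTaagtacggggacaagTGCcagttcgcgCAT
Zfp36l2: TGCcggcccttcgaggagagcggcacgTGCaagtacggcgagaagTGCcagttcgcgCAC

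Of the 183 members, 180 had a coding sequence in that annotation. C2H2 fingers were found in 172 of them, with a median of 9 and at most 33, in Zfp142. The KRAB signature was found in 59 and not in 121. Zfp445 is known as a KRAB protein and was not matched, so the signature undercounts the class. Members with the signature had a median of 11 fingers, and those without it had 7. The 3 Zfp36 genes had CCCH fingers only, and 5 members had neither kind. Among these 5, Zfp467, Zfp120 and Zfp935 were read from short coding sequences of 113, 130 and 150 residues. Only 1 transcript per gene was searched, so other isoforms may hold fingers. A linker (Thr-Gly-Glu, Lys or Arg, Pro) occurred in 126 members, at most 15 times.

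Whole reads could be recovered from the deposited values and ranged from 9794474 to 15890621 per library. The 8 Treg and T cell markers were present in every library. They summed to 3933.2 to 4502.3 TPM in the KO-labelled libraries and to 5145.7 to 5564.9 TPM in the WT-labelled ones, without overlap. Of the 8, 7 had a difference below 0, with a median of −0.23 on the log2 scale (−0.05 with the epithelial score described next in the fit). In 4 of them (Foxp3, Cd3d, Cd4 and Ctla4) every KO-labelled library lay below every WT-labelled one, as in 10.4% of all tested genes. The part of the T cell content in the members' values was not tested. Foxp3, the Treg transcription factor, stood at 195, 171 and 235 TPM in the KO-labelled libraries against 451, 664 and 590 TPM in the WT-labelled ones, a difference of −1.49 on the log2 scale with a limma adjusted p of 0.0678. Nr1d1, the gene of REV-ERBα, had 169, 154 and 141 TPM with the KO label and 66.3, 104 and 88.2 TPM with the WT label. No loss of this transcript shows with the KO label. The deleted exons are not given, so a level over the whole gene cannot settle whether the label is right. Every direction given here is between libraries by their labels. Nr1d1 overlaps Thra on the opposite strand, and no source used here states whether strand entered the counting. Separate animals are not named for the libraries, so p-values measure the spread between these libraries, which may be technical.

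Epithelial RNA was present in all 6 libraries and was higher in the libraries labelled KO. The 18 epithelial markers (Epcam, keratins, claudins and others, none at 0) summed to 3313.5 to 6572.4 TPM in the KO-labelled libraries and to 2311.4 to 3287.2 TPM in the WT-labelled ones. All 18 had a difference above 0, with a median of 0.86 on the log2 scale. In 11 of them every KO-labelled library lay above every WT-labelled one, as in 10.6% of all tested genes. Their mean log2(TPM + 1), the epithelial score, was 6.95, 7.57 and 6.62 in KO-labelled libraries 1 to 3 and 6.56, 5.91 and 6.25 in WT-labelled libraries 1 to 3. The 4 nuclear transcripts taken as a sign of RNA quality (Malat1, Neat1, Clk1 and Clk4) summed to 764.01 to 773.97 TPM in the KO-labelled libraries and to 1199.4 to 1541.2 TPM in the WT-labelled ones, and their part in the results on the members was not tested. The summed levels of macrophage, B cell, neutrophil, fibroblast and cytotoxic cell markers overlapped between the groups. By gene, 11 of 12 macrophage markers were above 0 (median 0.12), as were 8 of 8 fibroblast markers (0.28). So were 4 of 5 neutrophil markers tested (1.35), 3 of 7 B cell markers and 1 of 4 cytotoxic markers tested. S100a8 stood at 1.22, 5.57 and 8.57 TPM with the KO label and at 0 with the WT label, while the more abundant Mmp9 overlapped. The part of these cells in the members' values was not tested.

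Zfp transcripts as a whole stood at slightly lower levels in the libraries labelled KO, and no single member passed the test. The median difference of the 183 members, KO minus WT on the log2(TPM + 1) scale, was −0.19, against −0.0028 over the 13211 genes tested and −0.02 over the 10301 genes with a mean of 5 TPM or more. The median ratio of the group means was 0.868. All 183 members passed the filter on low values (1 TPM in at least 3 libraries). Of them 152 (83.1%) had a difference below 0, against 50.5% of all genes tested. The differences ran from −0.91 in Zfp831, named after its values were seen, to 0.34 in Zfp637. Those of 45 members lay within 0.1 of 0. Those of 18 members (9.84%) lay below −0.5, against 5.76% of all genes, and 0 lay above 0.5, against 9.07% of all genes. In bulk libraries, fewer cells of a type and less RNA per cell cannot be told apart. The distribution of the members' differences is shifted as a whole.

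**Figure D1:**
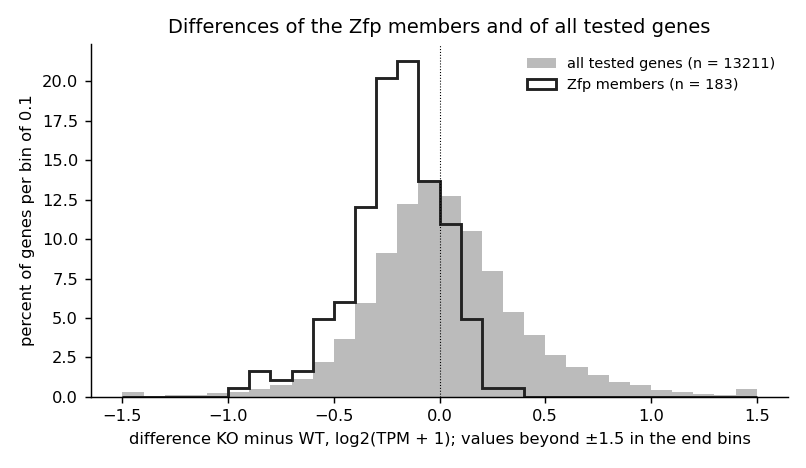
Distribution of the difference KO minus WT on the log2(TPM + 1) scale, as the percent of genes per bin of 0.1, for the 183 Zfp members and for all 13211 tested genes. The members' values centre on −0.19 and run from −0.91 to 0.34, with 152 of 183 below 0.

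By limma with Benjamini-Hochberg adjustment at 0.05, 0 members and 0 genes in all were called (0.0%). The smallest adjusted p was 0.1276 for a member and 0.0678 for any gene. At an unadjusted limma p under 0.05, 24 members (13.1%) were lower in the KO-labelled libraries, where 7.86% of all genes were, and 0 were higher, where 7.8% were. The count of 24 moved between 12 and 37 when 1 library was left out. It was 12 without WT-labelled library 2 (4.32% of all genes), 14 without KO-labelled library 1 (5.42%) and 37 without WT-labelled library 1 (10.4%). Of the members, 29 (15.8%) had every KO-labelled library below every WT-labelled one, against 10.4% of all genes. In 3 members (1.64%), Zfp706, Zfp106 and Zfp358, every KO-labelled library lay above, against 10.6% of all genes. The libraries of the other 151 members overlapped. With 3 libraries against 3, an exact two-sided permutation test cannot give a p below 0.1, which is the value of these 32 members.

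The libraries did not split cleanly by genotype. The members' median deviation from each gene's own mean over the 6 libraries, on the log2 scale, was −0.15 in KO-labelled library 1, −0.20 in library 2 and 0.03 in library 3. In WT-labelled libraries 1 to 3 it was −0.06, 0.23 and 0.15. KO-labelled library 3 thus lay above WT-labelled library 1, and the other 4 libraries made up the extremes. The same medians over all tested genes lay between −0.03 and 0.05. KO-labelled library 2 held the lowest value of 70 members and KO-labelled library 1 that of 57, while KO-labelled library 3 held that of 12. WT-labelled library 2 held the highest value of 96 members, WT-labelled library 3 that of 43 and WT-labelled library 1 that of 9. Outside the 3 CCCH genes the members summed to 2631.3, 2588.1 and 3052.7 TPM in the KO-labelled libraries and to 2832.2, 3436.8 and 3265.3 TPM in the WT-labelled ones.

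**Figure D2:**
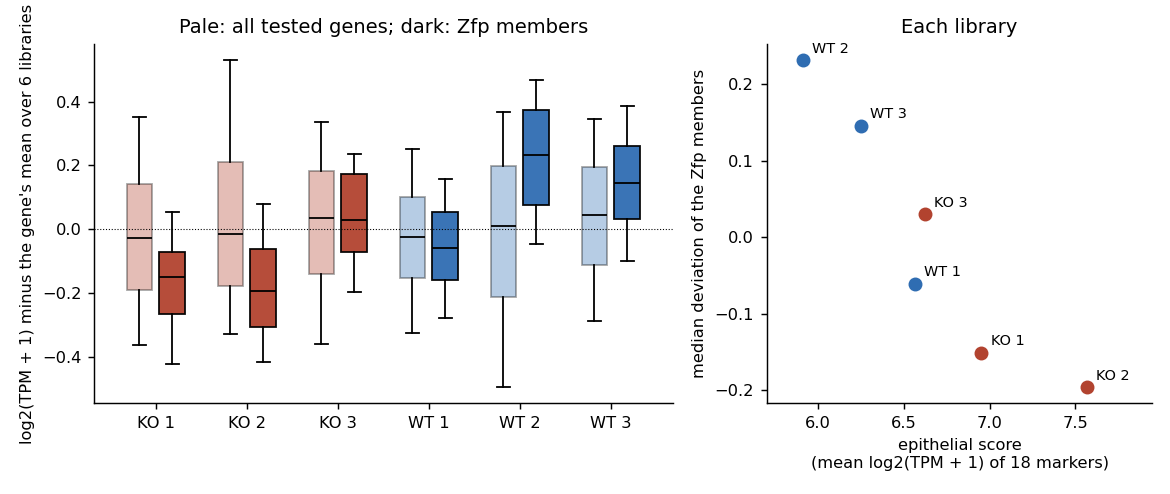
Left, deviation of each gene from its own mean over the 6 libraries on the log2(TPM + 1) scale, by library as labelled, for all tested genes (pale boxes) and the Zfp members (dark boxes), with boxes from the lower to the upper quartile, a line at the median and whiskers to the lowest and highest decile. Right, the members' median deviation in each library against its epithelial score (the mean log2(TPM + 1) of 18 markers). KO-labelled library 2 has the highest score (7.57) and the lowest median (−0.20), and WT-labelled library 2 the lowest score (5.91) and the highest median (0.23).

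The order of the libraries by epithelial score was nearly the reverse of their order by the members' median. When the score was a covariate in the fit, the members' median difference was 0.02, against 0.02 over all tested genes, and 81 members (44.3%) were below 0, against 47.1% of all genes. The sign changed in 87 members, 79 of them from below to above 0. Only 2 members then had an unadjusted limma p under 0.05 and a value below 0, against 2.91% of all genes. Every KO-labelled library had a higher score than every WT-labelled one, so with 6 libraries the genotype label and the score cannot be fully told apart. Without KO-labelled library 2 and WT-labelled library 2, the extremes of the score, the members' median was −0.09 and 130 members (71.0%) were below 0, against 51.0% of all genes. The plot of both fits shows the members shifted upward as a body.

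**Figure D3:**
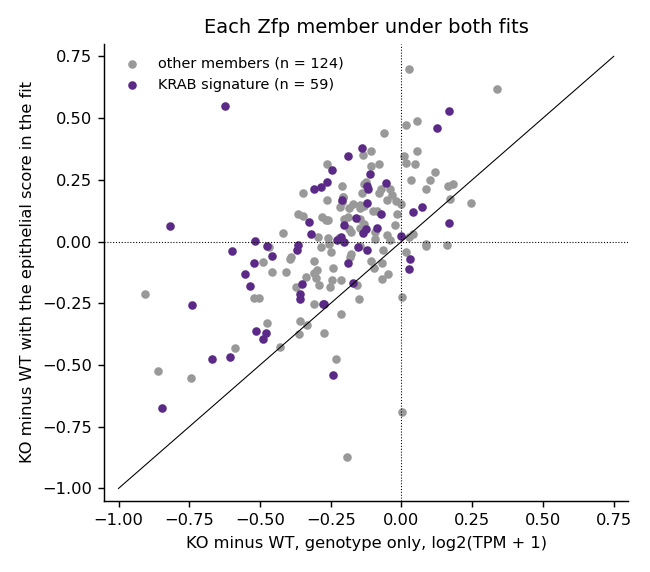
Difference KO minus WT on the log2(TPM + 1) scale of each Zfp member from the fit with genotype alone (horizontal axis) and from the fit that also holds the epithelial score (vertical axis), with the 59 members carrying the KRAB signature in purple, the other members in grey and the diagonal as a line of equal values. With the score in the fit 81 of 183 members are below 0, where 152 were without it, and Zfp281, Zfp382 and Zfp579 stay among the lowest.

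Of the 10 members of smallest p below 0, 5 carried the KRAB signature (Zfp715, Zfp871, Zfp382, Zfp868 and Zfp317), against 59 of the 180 members searched. Whether these shares differ was not tested. In all 10, every KO-labelled library lay below every WT-labelled one, as in 10.4% of all tested genes. The 10 were picked by p in these same libraries, so the separation partly follows from that choice. None passed the threshold on the adjusted p, and the adjusted limma p-values ran from 0.128 to 0.216.

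Zfp281, a regulator that binds GC-rich promoter elements and is known from stem cells, had the smallest p of the members. It stood at 23.8, 25.2 and 28.5 TPM in KO-labelled libraries 1 to 3 and at 37.7, 46.6 and 47.9 TPM in WT-labelled libraries 1 to 3. The lowest WT-labelled value was well above the highest KO-labelled one. The difference was −0.74 ± 0.14 (SE, n = 3 against 3) with a limma adjusted p of 0.128, and it was −0.55 with the epithelial score in the fit. The gene (NM_001160251) lies on chr1:136624901-136630391. Its relative Zfp148, which binds similar GC boxes, stood at 15.7, 17.1 and 20.6 TPM against 17.1, 23.5 and 20.7 TPM. These ranges overlapped, the difference was −0.19 ± 0.17 (SE), and the limma adjusted p was 0.612.

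Zfp579 and Zfp382 had the largest differences of the 10. Zfp579 (NM_026741, chr7:4992852-4996101) stood at 9.16, 9.80 and 13.5 TPM against 16.7, 21.5 and 22.8 TPM, a difference of −0.86 ± 0.19 (SE) with a limma adjusted p of 0.147. Zfp382 (NM_001081007, chr7:30121948-30135032), a KRAB gene with 9 fingers, stood at 6.44, 9.36 and 9.54 TPM against 12.03, 18.2 and 17.9 TPM, a difference of −0.85 ± 0.22 (SE) with a limma adjusted p of 0.182. In both genes the WT-labelled mean was close to double the KO-labelled one, with ratios of 1.88 and 1.90. They rest on 670 and 529 recovered reads over the KO-labelled libraries and on 963 and 773 over the WT-labelled ones. Their differences with the epithelial score in the fit were −0.52 and −0.67.

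Of the other KRAB genes among the 10, Zfp715 stood at 7.88, 9.32 and 11.03 TPM against 13.96, 17.1 and 15.4 TPM, a difference of −0.67 ± 0.17 (SE). Zfp871 stood at 24.4, 20.5 and 20.6 TPM against 28.7, 32.5 and 31.9 TPM (−0.49 ± 0.13). Zfp868 stood at 15.2, 13.4 and 14.1 TPM against 20.2, 22.1 and 18.4 TPM (−0.48 ± 0.13). In each of these genes a gap separated the highest KO-labelled library from the lowest WT-labelled one. Zfp317 stood at 11.2, 12.7 and 12.7 TPM against 15.2, 20.7 and 17.8 TPM (−0.51 ± 0.16).

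The other 3 genes without the signature were Zfp280c, Zfp292 and Zfp142. Zfp280c, on the X chromosome, stood at 6.55, 5.91 and 6.78 TPM against 9.47, 10.5 and 10.4 TPM (−0.59 ± 0.16, SE). Zfp292, a large protein of 2698 residues, stood at 34.4, 28.3 and 38.8 TPM against 42.6, 49.1 and 47.9 TPM (−0.46 ± 0.14), and its difference was −0.12 with the epithelial score in the fit. Zfp142 stood at 12.8, 14.4 and 14.9 TPM against 19.9, 19.8 and 18.1 TPM (−0.43 ± 0.13), and it was −0.43 with the score. Of these genes, Zfp142 had the same value in both fits and Zfp292 a much smaller one.

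**Figure D4:**
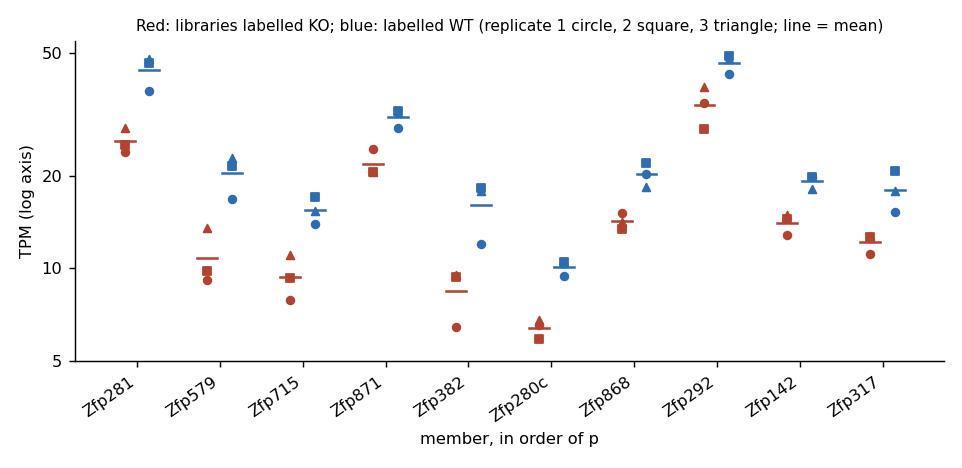
Levels in TPM (log axis) of the 10 Zfp members of smallest limma p below 0, with 1 point per library by label and a line at the mean of each group of 3. In all 10 the 3 KO-labelled libraries lie below the 3 WT-labelled ones, for example Zfp281 at 23.8 to 28.5 against 37.7 to 47.9 TPM. The 10 were picked by p in these same libraries.

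When the fit weighted the libraries by their variability (array weights), 582 genes were called, 2.7% of all genes lower and 1.7% higher in the KO-labelled libraries. The lowest weights were those of KO-labelled library 3 (0.4273) and WT-labelled library 1 (0.587). By the members' median, that KO-labelled library lay above that WT-labelled one. Among the called genes were 10 of the 183 members, all lower. They included Zfp281, Zfp579, Zfp715, Zfp382, Zfp292, Zfp217 and Zfp36l2. The others, outside the rule for naming and named after the values were seen, were Zfp169, Zfp280d and Zfp831. The members' limma adjusted p-values under these weights included 0.02298 for Zfp281 and 0.02817 for Zfp579. Over all alternatives, the limma adjusted p of Zfp281 ran up to 0.9396 and that of Zfp579 up to 0.9886. No member was called by voom on the recovered reads.

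The members of smallest p above 0 had smaller differences, and their smallest unadjusted limma p was 0.1109, so none differed beyond the spread between libraries. Zfp106, which encodes an RNA-binding protein, stood at 43.2, 47.3 and 48.9 TPM in the KO-labelled libraries and at 39.3, 42.2 and 40.9 TPM in the WT-labelled ones. Its difference was 0.18 ± 0.10 (SE) with a limma adjusted p of 0.419. Zfp706 stood at 32.1, 34.2 and 30.4 TPM against 29.985, 26.0 and 30.3 TPM (0.16 ± 0.12), and Zfp358 at 7.17, 7.34 and 7.70 TPM against 6.59, 5.18 and 6.55 TPM (0.25 ± 0.17). These were the 3 members whose KO-labelled libraries all lay higher. Zfp637 had the largest value, 0.34 ± 0.24, and its libraries overlapped at 11.4, 8.85 and 8.12 TPM against 5.42, 9.95 and 6.81 TPM. The differences of Zfp593, Zfp628, Zfp7, Zfp710, Zfp251 and Zfp790 lay between 0.12 and 0.17, and the libraries of all 6 overlapped.

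The CCCH family held the most abundant members, with 34.0% of the members' summed TPM in 3 genes. Zfp36l1 was the highest, at 867, 597 and 672 TPM in the KO-labelled libraries and 579, 812 and 726 TPM in the WT-labelled ones. Zfp36 followed, at 637, 674 and 547 TPM against 672, 597 and 584 TPM. Neither showed a difference beyond its spread, with 0.01 ± 0.18 (SE) for Zfp36l1 and 0.00 ± 0.12 for Zfp36 and limma adjusted p-values of 0.988 and 0.998. Zfp36l2 stood at 151, 169 and 181 TPM against 179, 276 and 269 TPM. Only WT-labelled library 1 reached the KO-labelled range. Its difference was −0.50 ± 0.17 (SE) with a limma adjusted p of 0.245, and it was −0.23 with the epithelial score in the fit. The difference between Zfp36l2 and its relatives was not tested.

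The machinery through which these proteins act was read from the same fit. Of 25 genes of deadenylation, decapping and AU-rich element binding, 18 were below 0 with a median of −0.07, and 0 passed the adjusted test. With the epithelial score in the fit, 12 were below 0 and the median was 0.0088. Cnot2, a subunit of the CCR4-NOT deadenylase, had a difference of −0.32 with a limma adjusted p of 0.211, and the deadenylase genes Pan2 and Pan3 had −0.56 and −0.45. Of 20 mRNAs known to carry AU-rich elements, 8 were below 0 and 12 above, with a median of 0.18, and 0 passed. With the epithelial score in the fit the direction turned, with 12 below 0 and a median of −0.31. Il10, Icos and Ctla4, Treg products, lay lower in every KO-labelled library, at −0.82, −0.65 and −0.40. Il17a, Ier3 and Myc lay higher in every one, at 1.06, 0.85 and 0.26. These were 3 of the 20 on each side, where 10.4% of all tested genes lay lower and 10.6% higher in this way. The 2 directions were mixed within this list, in which some genes are Treg products and some are also made by other cells.

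The members carrying the KRAB signature stood somewhat lower than the rest. Of the 59, 52 were below 0 with a median difference of −0.24, and 11 (18.6%) did not overlap, all of them lower in the KO-labelled libraries, where 10.4% of all tested genes did so. Of the 121 without it, 98 were below 0 with a median of −0.15, and 16 (13.2%) did not overlap on the lower side, a share near that of all genes. With the epithelial score in the fit the medians were 0.00 and 0.04. The KRAB group was also lower in GC content, with a median of 40.48% of the transcript against 50.72%. A class difference of this size was not tested. By the number of C2H2 fingers the medians were −0.14 for 1 to 4 fingers (32 members), −0.19 for 5 to 9 (63), −0.21 for 10 to 14 (51) and −0.25 for 15 or more (26). With the epithelial score in the fit these medians were 0.07, 0.004, 0.02 and 0.05, without a steady trend. Across members, the Spearman correlation of finger number with the difference was −0.201 (n = 180), a description over genes that share the same libraries.

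Among KRAB members with known roles, Zfp809, which brings TRIM28 to retroviral DNA, stood at 22.4, 26.4 and 25.8 TPM against 24.7, 32.5 and 28.6 TPM, with a difference of −0.19. Zfp445, which protects genomic imprints, stood at 36.9, 34.1 and 39.2 TPM against 43.3, 49.0 and 44.8 TPM. Its groups did not overlap, and the difference was −0.31 ± 0.11 (SE) with a limma adjusted p of 0.251. Zfp53, the most abundant KRAB member, stood at 56.3, 41.9 and 53.2 TPM against 62.1, 76.2 and 58.0 TPM, which did not overlap either (−0.37 ± 0.15, limma adjusted p = 0.302, −0.04 with the epithelial score in the fit).

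The corepressors of the KRAB proteins were read from the same fit. Of 15 genes of the TRIM28, SETDB1, HP1, HUSH and DNA methylation machinery, 11 were below 0 with a median of −0.19, and 0 passed the adjusted test. With the epithelial score in the fit the direction turned, with 7 below 0 and a median of 0.08. Trim28 itself stood at 86.5, 90.1 and 113 TPM against 91.9, 86.6 and 94.6 TPM, a difference of 0.07. Setdb1 had −0.23. The largest value was that of Atf7ip, a partner that stabilizes SETDB1, at 28.02, 27.3 and 42.6 TPM against 48.1, 62.4 and 58.2 TPM. Its groups did not overlap, and the difference was −0.79 ± 0.19 (SE) with a limma adjusted p of 0.161. Zfp638, which works with the HUSH complex, stood at 25.8, 21.5 and 26.5 TPM against 22.1, 38.7 and 37.6 TPM and overlapped (−0.36 ± 0.22). For the NuRD remodelling complex, 5 of 13 genes were below 0 with a median of 0.05, and with the epithelial score in the fit 3 were, with a median of 0.11. Zfp410, known as an activator of the NuRD gene Chd4, stood at 18.7, 18.2 and 24.6 TPM against 20.8, 27.7 and 23.1 TPM, and Chd4 had a difference of 0.12.

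Zfp91, Zfp335 and Zfp318, also known from lymphocytes, had differences between −0.34 and −0.02, none past the test. Zfp91, a regulator of noncanonical NF-κB signalling with a role in Tregs, stood at 49.0, 47.9 and 54.3 TPM against 50.3, 50.2 and 53.1 TPM (−0.02 ± 0.10, SE). Zfp335, needed for T cell maturation, stood at 24.0, 27.3 and 34.1 TPM against 28.5, 34.4 and 36.7 TPM (−0.22 ± 0.16). Zfp318, known for the switch between IgM and IgD in B cells, stood at 4.57, 4.57 and 4.17 TPM against 4.07, 6.98 and 7.03 TPM (−0.34 ± 0.23). The 7 B and plasma cell markers summed to 540.17 to 2080.9 TPM and 714.73 to 1540.0 TPM in the 2 groups, which overlapped, and their part in the level of Zfp318 was not tested.

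Other members of known function, picked whatever their values, spanned cell division, ribosomes, RNA and chromatin. Zfp207, which acts at the mitotic spindle, stood at 129, 129 and 152 TPM against 129, 154 and 141 TPM (−0.05 ± 0.11, SE). Zfp598, a ubiquitin ligase that senses stalled ribosomes, had −0.04 ± 0.11, and Zfp622, a factor of ribosome maturation, had −0.10 ± 0.11. Zfp830 and Zfp326, linked to splicing and to RNA polymerase elongation, had −0.10 and −0.28. Zfp451, a SUMO ligase, stood at 9.81, 11.5 and 14.004 TPM against 13.3, 18.5 and 16.0 TPM (−0.41 ± 0.19, limma adjusted p = 0.338). Zfp217 stood at 20.4, 21.1 and 29.3 TPM against 26.99, 37.6 and 35.9 TPM (−0.49 ± 0.19, limma adjusted p = 0.273) and had −0.08 with the epithelial score. Zfp592 and Zfp687, partners in a chromatin complex with Zmynd8, had −0.08 and −0.16, and every KO-labelled library of Zfp687 lay below its WT-labelled ones. The promoter factor Zfp143 had −0.14, and Zfp384 and Zfp131 had −0.06 and −0.10.

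Transcript length was examined because the members are long and long transcripts in general stood lower in the libraries labelled KO. The members' median length was 3267 bases, against 2627 over all tested genes. Over all tested genes the median difference went from 0.07 under 1000 bases to −0.12 from 6000 bases on. The members lay below all genes in each of the 6 length classes, at −0.09 against 0.05 from 1000 to 2000 bases (19 members), −0.20 against 0.01 from 2000 to 3000 (57), −0.19 against −0.03 from 3000 to 4000 (44), −0.17 against −0.06 from 4000 to 6000 (40) and −0.24 against −0.12 above (21). The class under 1000 bases held 2 members. The longest member, Zfp26 (11395 bases), had −0.14 and the shortest, Zfp672 (442 bases), had 0.03. With the length trend of each library removed, the members' median was −0.15 and 150 were below 0. With the epithelial score in the fit, the members did not lie below all genes in each length class. From 1000 to 2000 bases the members' median was then 0.12 against 0.05, and from 2000 to 3000 it was 0.02 against 0.04. It was 0.06 against 0.02 from 3000 to 4000, 0.02 against −0.01 from 4000 to 6000 and −0.02 against −0.03 above.

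GC content gave a similar picture. The members' median was 47.14%, against 50.60% over all tested genes. The members' median difference was −0.26 against −0.11 over all genes under 40% GC (37 members), −0.23 against −0.05 from 40 to 45% (42), −0.15 against −0.01 from 45 to 50% (30), −0.18 against 0.04 from 50 to 55% (32) and −0.08 against 0.03 from 55% on (41). Across members, the Spearman correlation of GC with the difference was 0.326 (n = 182) and that of length was −0.139 (n = 183), and over all tested genes they were 0.103 and −0.157. With both trends removed, the members' median was −0.13 and 148 were below 0. With the epithelial score in the fit, the members' medians by GC class ran from −0.0006 under 40% to 0.08 from 45 to 50%. Those of all genes ran from −0.0001 under 40% to 0.03 from 50 to 55%.

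**Figure D5:**
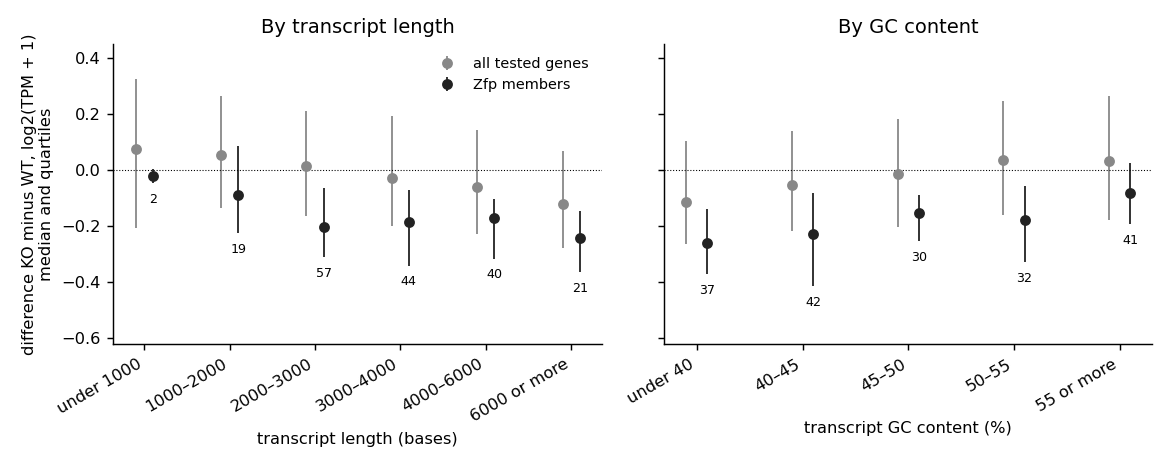
Median and quartiles of the difference KO minus WT on the log2(TPM + 1) scale in classes of transcript length (left, bases) and GC content (right, percent), for the Zfp members and for all tested genes. The values are from the fit without the epithelial score. In it the members lie below all genes in each class, for example at −0.24 against −0.12 from 6000 bases on. For both, the longest and the GC-poorest class have the lowest medians, but the members' medians do not fall steadily from class to class.

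By level, the median was −0.20 from 5 to 10 TPM (80 members), −0.20 from 10 to 20 (58), −0.18 from 20 to 50 (37) and −0.05 from 50 on (8). Of the Zfp symbols under the level, 117 were tested, and 78 of them were below 0 with a median of −0.13. Other zinc finger symbols gave medians of −0.17 for Zbtb (33 of 41 below 0), −0.11 for Zkscan (7 of 8), −0.22 for Zscan (7 of 9) and −0.20 for Zc3h (11 of 15). With the epithelial score in the fit all of these medians turned, to 0.09 for the Zfp symbols under the level (46 below 0), 0.01 for Zbtb (20), 0.13 for Zkscan (4), 0.18 for Zscan (1) and 0.0083 for Zc3h (7). None of these sets was tested against the members.

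Zfp genes often lie in arrays of related copies, and 78 members lay in groups of at least 3 with starts under 1 Mb apart. On chr13:67312998-67729173 all 10 members from Zfp595 to Zfp65 were below 0, with a median of −0.31. On chr17:21008941-22377281 12 of 13 members from Zfp160 to Zfp758 were below 0, with a median of −0.26. Of all members, 83.1% were below 0. With the epithelial score in the fit, 7 members of the chromosome 13 array were below 0, with a median of −0.03. In the chromosome 17 array 5 were, with a median of 0.02. Outside the arrays 105 members had a median of −0.18, against −0.21 inside them. With the score these medians were 0.01 and 0.05. Within the chromosome 13 array Zfp874a stood at 7.13, 5.995 and 8.94 TPM against 6.998, 22.2 and 15.7 TPM, so that WT-labelled library 1 lay among the KO-labelled values. Its copy Zfp874b had a similar difference (−0.60 against −0.82), and the counts of such near-identical copies are uncertain because reads can be split between them. On chr7:127233443-127885996 the picture was mixed, with 4 of 7 members below 0. These genes were picked for their position after the values were seen. Restricting the members to the 163 whose rows overlap no other gene left the median at −0.19.

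The sites at which REV-ERBα binds contain the core AGGTCA, in a longer form TAGGTCA, and both strands were searched in windows from 250 bases before to 50 bases after the start sites of RefSeq (GRCm38.p6). A window was found for 149 members, 185 windows in all. AGGTCA occurred in 25 windows (13.51%), against 12.8% of the windows of tested genes and 16.26% of all windows. TAGGTCA, each of which also holds the shorter form, occurred in 2.7%, against 1.99% and 2.61%. Of the 10 members of smallest p below 0, 1 (Zfp871) had AGGTCA and 0 had TAGGTCA. A match is a description of the letters in the window.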

How the data were processed

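RNA-seq of 3 libraries labelled REV-ERB KO and 3 labelled REV-ERB WT was read from a table of TPM values deposited by the authors, 1 value per gene and library. Per the labels' protocols, libraries were made with a stranded mRNA kit from 1.3 µg of total RNA. Per the submitters' processing notes, FastQC 0.11.8, Trim Galore 0.4.4, STAR 2.5.3a, HOMER 4.9.1 and the build mm10 were used, and no source used here gives the counting rule. Values times length were whole multiples of 1 read (tolerance 0.1, up to 500 reads) in 99.98 to 99.99% of cases, which gave the depths.

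Genes with 1 TPM in at least 3 of 6 libraries (13211) were fitted on log2(TPM + 1) with limma 3.58.1 (R 4.3.3, variance trend, two-sided, Benjamini-Hochberg, 0.05). The fit was also run on simulated data that held no differences in epithelial RNA, so that run does not show how it performs on these libraries. Differences on this scale understate the change of low genes. Members and gene lists were chosen with earlier results of these data known. Named were 27 members of interest, the 10 of smallest p on each side, the 5 highest, the 3 on each side of the level, and the longest and shortest. Fingers were counted in GENCODE M21 translations in place of the planned protein table. Over all tested genes, libraries with the same replicate number did not deviate together (correlations 0.004, −0.219 and −0.041). Scaling, pseudocount, filter, trend, covariate, weights and left-out libraries were varied.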

Additional observations from a re-analysis of the deposited data

How the results depend on the processing

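The members' median difference (−0.19) kept its sign in 24 of 25 alternatives, and with the epithelial score as a covariate it was 0.02444 with 81 members below 0. From a mean of 10 TPM, 88 of 103 members were below 0. Called genes numbered 3 by voom and 582 with array weights, and 0 to 14 when 1 library was left out, 14 without WT-labelled library 1. The planned edgeR and DESeq2 fits were not run, since the deposited unit is TPM. With the replicate number as a block, 0 genes were called, the median stayed at −0.19 with 152 members below 0, and 22 members had an unadjusted limma p under 0.05 on the lower side, where 7.27% of all genes did. Whether equal numbers pair the samples was not settled. Summed B and plasma cell markers were lowest in library 3 of both groups, at 540.17 TPM (KO-labelled) and 714.73 TPM (WT-labelled). Leaving out 1 library gave medians from −0.2642 to −0.127 and 143 to 161 members below 0. The members that did not overlap then numbered 33 to 84 lower (81 without KO-labelled library 3 and 84 without WT-labelled library 1, against 23.5% and 22.1% of all genes) and 3 to 7 higher, against 12.7% to 19.3% of all genes. Leaving out KO-labelled library 2 and WT-labelled library 2 was an alternative chosen after seeing the data, like those on GC. Of the 183 members, 38 were then lower, against 16.1% of all genes, and 11 were higher, against 16.8%.

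Of 49 named members, 29 kept their sign in every alternative, 22 below and 7 above 0. The cause of the changes below was not tested. With the epithelial score, the differences were 0.35 for Zfp143, 0.0973 for Zfp148, 0.166 for Zfp207, 0.0352 for Zfp26, 0.0155 for Zfp335, −0.226 for Zfp36, 0.11 for Zfp39, 0.159 for Zfp410, 0.196 for Zfp592, 0.18 for Zfp597, 0.00471 for Zfp598, 0.0400 for Zfp622, 0.113 for Zfp638, −0.0127 for Zfp706, 0.122 for Zfp830 and 0.068 for Zfp91. With length and GC trends removed they were 0.00859 for Zfp148, 0.0804 for Zfp26, −0.0653 for Zfp36, 0.00189 for Zfp592, −0.0388 for Zfp672 and 0.0519 for Zfp91. With the length trend alone they were 0.0223 for Zfp26, −0.034 for Zfp36, 0.0275 for Zfp592, −0.0874 for Zfp672 and 0.0522 for Zfp91. Zfp36 was −0.0313 with the GC trend removed and −0.0256 with quantile normalization. Array weights gave −0.0149 for Zfp36l1 and −0.161 for Zfp672. Without both libraries of replicate number 2 the values were 0.113 for Zfp143, 0.0502 for Zfp207, −0.0861 for Zfp36, 0.0121 for Zfp39, 0.0181 for Zfp592, 0.0318 for Zfp597 and 0.0421 for Zfp830. Leaving out 1 library gave −0.0188 to 0.274 for Zfp7, −0.0624 to 0.0875 for Zfp36, −0.172 to 0.0466 for Zfp39, −0.0775 to 0.0114 for Zfp91, −0.275 to 0.00789 for Zfp143, −0.129 to 0.0115 for Zfp207, −0.124 to 0.0397 for Zfp598, −0.179 to 0.365 for Zfp672, −0.0369 to 0.509 for Zfp790 and −0.142 to 0.127 for Zfp36l1. Depth limits the low members: the fewest recovered reads of a member over 3 libraries were 188 and 137 in the 2 groups.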
